A study of Mus musculus with 4 samples.

Results

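Cd244a and its relatives of the SLAM receptor family, with the ligand Cd48, were examined in brain microglia of a mouse model of Alzheimer's disease. The 9 members (Cd244a, Cd48, Cd84, Ly9, Slamf1, Slamf6, Slamf7, Slamf8 and Slamf9) were taken by gene symbol from the count tables, and all 9 of 9 were found among 49993 genes. The group was selected on the difference between the genotypes in these same libraries, so its values for that difference are given as a description and no test is attached to them. RNA-seq libraries had been made from CD11b+ microglia of 10-month-old mouse brains. The AD group (genotype APP/PS1+ asrij+/+, 2 libraries) has the amyloid-forming APP/PS1 transgenes and intact asrij. The AD/KO group (APP/PS1+ asrij-/-, 2 libraries) has the same transgenes and a constitutive deletion of asrij, which is the gene Ociad1. Both groups thus carry APP/PS1, and no library from mice without APP/PS1 was analysed here. The promoters of the transgenes, the strain, and whether a library is 1 animal or a pool are not given in the sources used here, so p-values measure only the spread between these libraries.

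SLAM receptors are single-pass members of the immunoglobulin superfamily, found on blood and immune cells. Most of them bind another copy of themselves on a neighbouring cell, whereas Cd244a (2B4) binds Cd48, which is held in the membrane by a lipid anchor and has no cytoplasmic tail. The tails of Cd244a, Cd84, Ly9, Slamf1, Slamf6 and Slamf7 hold tyrosine motifs that recruit the small SH2 adaptors SAP (Sh2d1a) and EAT-2 (Sh2d1b1), or phosphatases in their place, so that the same receptor can activate or restrain a cell. Slamf8 and Slamf9 have short tails without such motifs, and both are known from macrophages and dendritic cells.

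The libraries held between 13102622 and 19810076 counts, at which 10 counts equal from 0.521 to 0.726 CPM (counts scaled to library size, after TMM normalization, which sets the trimmed mean of the log ratios between libraries to 0). Ociad1 stood at 50.2 and 63.4 CPM in AD and at 38.9 and 32.1 CPM in AD/KO. Its transcript was lower in both AD/KO libraries but not lost, so AD and AD/KO mean the libraries as labelled. Its log2 fold change was 0.050 and 0.17 under the scalings to myeloid genes used further on, the homeostatic and the pan-myeloid one. The medians of all genes under these were 0.74 and 0.84. AD/KO replicate 2 stood apart from the rest. The summed level of 16 pan-myeloid genes (among them Spi1, Ptprc and C1qa) was 9271 and 7577 CPM in AD, 9275 CPM in AD/KO replicate 1 and 3138 CPM in AD/KO replicate 2. Summed neuronal markers ran the other way, at 199, 744, 566 and 1735 CPM in the same order. In such bulk libraries fewer cells of a type and less RNA per cell cannot be told apart. AD replicate 2 held 4505 CPM of 10 summed neutrophil markers against 323 to 520 CPM in the other libraries, and it alone had many reads of Xist, the RNA of the inactive X chromosome (1391 reads, against 3 to 15). Against the labelled cell type, 14 homeostatic microglia genes were read, and they summed to between 7295 and 22065 CPM with none at 0 in any library.

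All 9 members lie on chromosome 1 (GRCm38.p6, RefSeq). Cd244a (171558718 to 171585316), Ly9 (171588613 to 171607410), Slamf7 (171632403 to 171653037), Cd48 (171681245 to 171705258), Slamf1 (171767131 to 171801184), Cd84 (171839697 to 171890718) and Slamf6 (171917458 to 171948958) follow each other, while Slamf9 (172458569 to 172478421) and Slamf8 (172581377 to 172590873) lie further along. All are protein-coding genes. In the GENCODE M21 annotation the exons of Slamf7 share 423 bases (9.24% of their length) with Gm37787, an antisense RNA, and no other member shares exon bases with another gene. The longest transcript of Slamf1 holds a stretch of up to 209 bases that is at least 95% identical to transcripts of 145 other genes, so part of its counts is uncertain.

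The 250 bases before the start site that the RefSeq promoter table uses (GRCm38.p6) were read for 8 of the 9 members, since Ly9 had no entry. By the gene positions above, the windows of Cd244a, Slamf7, Cd48, Slamf9 and Slamf8 lie within the gene. The sequences are shown for Cd244a, Slamf7 and Cd84, which share the AP-1 sequence TGANTCA, and for Slamf8, whose groups overlapped in the counts. Capitals mark matches on either strand to 6 motifs searched: ETS (GGAAGT), PU.1 (GAGGAAGT, which contains the ETS motif), an interferon-response repeat (GAAA, any 2 bases, GAAA), AP-1 (TGANTCA), RUNX (TGTGGT) and the E-box CACGTG.
Cd244a, chr1:171558943-171559192, plus strand: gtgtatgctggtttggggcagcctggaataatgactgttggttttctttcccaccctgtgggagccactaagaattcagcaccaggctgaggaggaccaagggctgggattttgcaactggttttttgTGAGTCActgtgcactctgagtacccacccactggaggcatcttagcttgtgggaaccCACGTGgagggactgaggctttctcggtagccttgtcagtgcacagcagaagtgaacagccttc
Slamf7, chr1:171649000-171649249, minus strand: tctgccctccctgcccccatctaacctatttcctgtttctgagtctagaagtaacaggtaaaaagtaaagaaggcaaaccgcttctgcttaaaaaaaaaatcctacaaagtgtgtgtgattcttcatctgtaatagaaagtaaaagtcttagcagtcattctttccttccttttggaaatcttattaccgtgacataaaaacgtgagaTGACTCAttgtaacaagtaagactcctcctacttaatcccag
Cd84, chr1:171839447-171839696, plus strand: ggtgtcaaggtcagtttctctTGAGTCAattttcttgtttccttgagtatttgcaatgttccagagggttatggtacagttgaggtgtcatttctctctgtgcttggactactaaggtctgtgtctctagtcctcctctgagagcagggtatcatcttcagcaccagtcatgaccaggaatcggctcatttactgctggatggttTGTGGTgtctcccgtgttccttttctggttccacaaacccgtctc
Slamf8, chr1:172590569-172590818, minus strand: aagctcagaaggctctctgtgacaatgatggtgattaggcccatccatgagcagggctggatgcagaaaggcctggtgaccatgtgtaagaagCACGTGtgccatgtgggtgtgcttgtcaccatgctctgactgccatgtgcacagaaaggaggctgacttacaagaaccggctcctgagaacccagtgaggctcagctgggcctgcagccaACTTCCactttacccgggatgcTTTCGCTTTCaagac

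TGANTCA was found in 3 of the 8 member sequences and in 6.75% of 32851 such sequences in the table. In Cd244a it began 122 bases before the start site, in Slamf7 42 bases and in Cd84 229 bases before it. CACGTG was found in Cd244a, Slamf8 and Slamf9 (6.02% of all). GGAAGT was found in Slamf8 and Slamf9 (19.7%), GAGGAAGT in Slamf9 alone of the 8 (2.44%), and TGTGGT in Cd48 and Cd84 (14% of all). The interferon-response repeat was found in Slamf8 alone of the 8 (2.98% of all), beginning 15 bases before the start site. Slamf1 and Slamf6 held none of the 6 in this window. These matches are letters in a sequence and show no binding.

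Cd244a, the receptor for Cd48, had the largest difference of the family. It had 243 and 313 reads in AD and 95 and 49 reads in AD/KO, although the AD/KO libraries were the deeper ones. This corresponds to 17.6 and 19.2 CPM in AD and to 4.95 and 2.66 CPM in AD/KO. The AD/KO values were far below the AD values. The means were 18.4 ± 1.13 CPM (SD, n = 2) and 3.81 ± 1.62 CPM (SD, n = 2), so that AD/KO stood at 20.6% of AD, a log2 fold change of −2.27 (SE 0.46).

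The ligand Cd48 differed less. It stood at 41.1 and 29.6 CPM in AD and at 27.6 and 8.47 CPM in AD/KO, where replicate 1 was just below the lower AD library and replicate 2 far below it. The log2 fold change was −0.97 (SE 0.62). Because both genes were counted in the same libraries, their ratio does not depend on how the libraries were scaled. There were 2.33 and 1.54 reads of Cd48 for each read of Cd244a in AD and 5.57 and 3.18 in AD/KO, so the balance lay further towards the ligand in both AD/KO libraries.

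Ly9 (CD229) and Slamf7 (CRACC), self-binding receptors with tyrosine motifs in their tails, are the next genes along the chromosome from Cd244a and had the next largest differences. Ly9 stood at 69.5 and 57.2 CPM in AD and at 26.0 and 10.4 CPM in AD/KO. Its groups did not overlap, with means of 63.3 ± 8.75 CPM and 18.2 ± 11.0 CPM (SD, n = 2 each), 28.7% of AD and a log2 fold change of −1.80 (SE 0.51). Slamf7 was scarcer, at 6.75 and 5.35 CPM in AD (93 and 87 reads) and 1.88 and 0.977 CPM in AD/KO (36 and 18 reads). Its groups did not overlap either, and AD/KO stood at 23.6% of AD with a log2 fold change of −2.08 (SE 0.58).

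Cd84, a self-binding receptor of myeloid cells and platelets, was the member with the most reads. It stood at 268 and 227 CPM in AD and at 196 and 67.8 CPM in AD/KO. Here AD/KO replicate 1 was close to the AD libraries and replicate 2 was low. The log2 fold change was −0.91 (SE 0.58). Slamf6 (Ly108), also self-binding, stood at 25.3 and 17.6 CPM in AD and at 14.3 and 4.88 CPM in AD/KO (log2 fold change −1.16, SE 0.60). Slamf9, one of the members with a short tail, stood at 26.0 and 30.2 CPM in AD and at 19.3 and 5.21 CPM in AD/KO (log2 fold change −1.19, SE 0.66). In all 3 genes the AD/KO libraries lay below the AD libraries without overlap, but they differed from each other by more than the AD libraries did.

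Slamf1 (CD150), a self-binding receptor that also recognises bacteria, and Slamf8, which is known to restrain the phagocyte NADPH oxidase, overlapped between the groups. Slamf1 stood at 5.37 and 4.18 CPM in AD and at 5.47 and 1.36 CPM in AD/KO (log2 fold change −0.48, SE 0.77). Slamf8 stood at 43.3 and 26.4 CPM in AD and at 45.3 and 13.02 CPM in AD/KO (log2 fold change −0.26, SE 0.66). For both genes the highest library was AD/KO replicate 1 and the lowest AD/KO replicate 2. Leaving out AD/KO replicate 2 turned both upward, to 0.21 for Slamf1 and 0.39 for Slamf8.

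**Figure D1:**
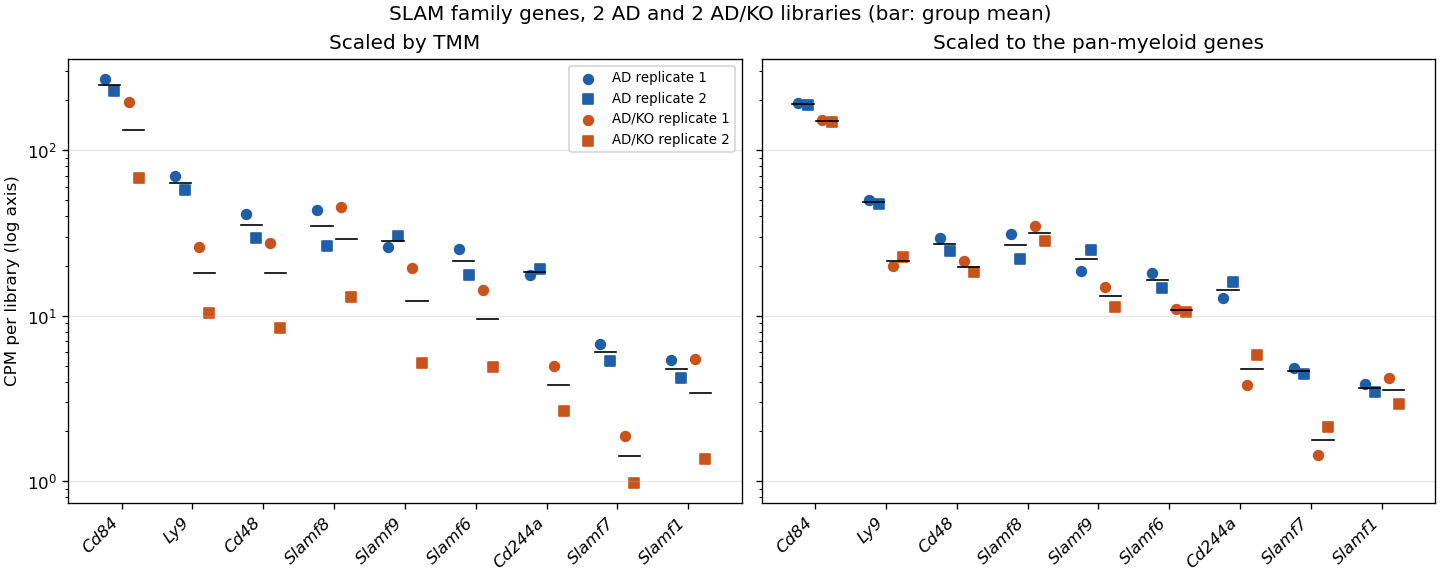
Expression of the 9 genes in CPM on a log axis, with 1 point per library (AD blue, AD/KO orange, circle replicate 1, square replicate 2) and a bar at each group mean, scaled by TMM (left) or to 16 pan-myeloid genes (right). AD/KO replicate 2 is the lowest library for 9 of 9 genes on the left, and on the right its values lie near those of AD/KO replicate 1.

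Across the family, all 9 members passed the filter on low counts and had a negative log2 fold change, with a median of −1.16 against −0.05 for the 21439 genes tested. In 7 of 9 members the 2 groups did not overlap and AD/KO was the lower, as in 21.7% of all genes tested. Nothing is read from these counts, since the members were chosen from this contrast. Over all genes, the quasi-likelihood test of edgeR called 0 genes (0% of those tested) at a Benjamini-Hochberg adjusted p under 0.05, the smallest being 0.680. Without adjustment 1072 genes had a p under 0.05, and DESeq2 called 90. AD/KO replicate 2 weighed on the size of the difference. The median of the members was −0.53 without it and −2.08 without AD/KO replicate 1.

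Since the share of myeloid RNA differed between libraries, the members were also read after scaling every library to the same mean log2 level of 16 pan-myeloid genes or of 14 homeostatic microglia genes. The 16 pan-myeloid genes themselves had a median log2 fold change of −0.52 under TMM, with 14 lower, and the homeostatic genes one of −0.36, with 12 lower. Scaling to the pan-myeloid genes moved the median of all genes to 0.84, and scaling to the homeostatic genes moved it to 0.74. The members then had medians of −0.60 and −0.72. Each library has 1 factor for all its genes, and the medians of the members and of all genes both rose, though not equally. The distance between these medians was 1.44 and 1.46, against 1.11 under TMM. This distance does not measure the part of myeloid RNA in the difference, which was not tested.

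Under the pan-myeloid scaling the AD/KO libraries came close to each other. Cd244a was at 12.7 and 16.0 CPM in AD against 3.82 and 5.77 CPM in AD/KO, 33.4% of AD. Ly9 was at 50.1 and 47.4 against 20.0 and 22.5 CPM (43.6%), and Slamf7 at 4.87 and 4.44 against 1.45 and 2.12 CPM (38.3%). These 3 genes kept the largest differences on this scale. Cd84 was at 193 and 188 against 151 and 147 CPM (78.2%), Cd48 at 73.1% of AD, Slamf6 at 65.9% and Slamf9 at 59.9%. The same 7 members as under TMM showed no overlap, as did 5.65% of all genes in that direction under this scaling, and 7.87% under the homeostatic scaling, where these 7 also did not overlap. Slamf1 was at 97.6% of AD and overlapped. Slamf8 changed direction, to 119% of AD under the pan-myeloid scaling (log2 fold change 0.25) and 109% under the homeostatic one (0.13), again with overlap. The medians of all genes under these scalings were higher, at 0.84 and 0.74.

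**Figure D2:**
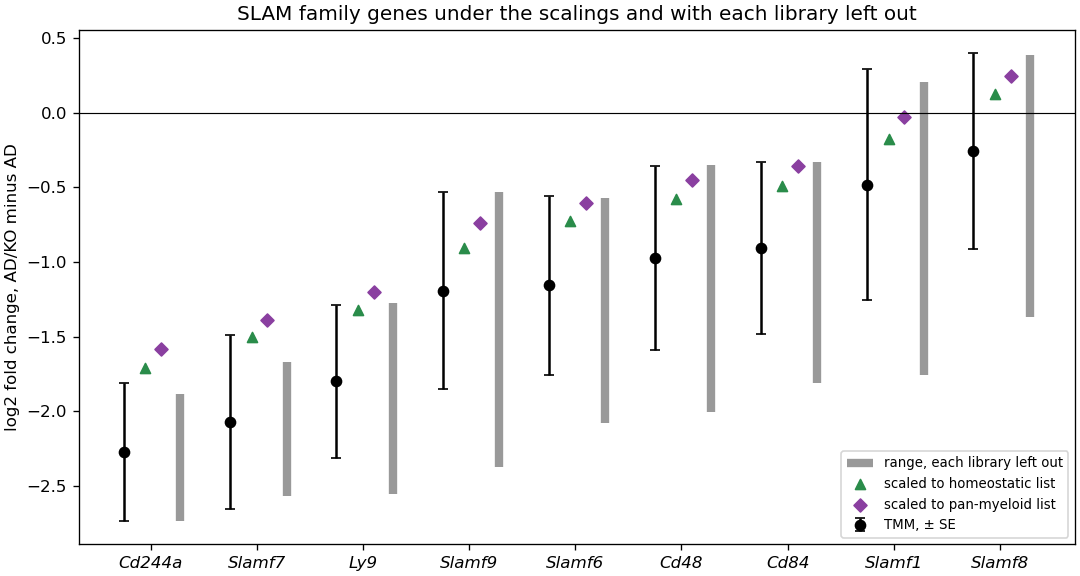
Log2 fold change (AD/KO minus AD) of each member under TMM with its standard error (black), under the homeostatic (green) and pan-myeloid (purple) scalings, and as the range over the 4 fits that leave out 1 library (grey). Cd244a, Slamf7 and Ly9 stay below −1 in all of these, while Slamf1 and Slamf8 reach above 0.

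A comparison within each library, added after the values were seen, needs no scaling at all. For every 100 reads of Cd84 there were 6.58 and 8.49 reads of Cd244a in AD and 2.53 and 3.92 in AD/KO. For Ly9 the numbers were 26.0 and 25.2 in AD and 13.3 and 15.3 in AD/KO. For Slamf7 they were 2.52 and 2.36 against 0.959 and 1.44. These 3 genes, and by a narrow margin Slamf6 (9.43 and 7.78 against 7.32 and 7.20), were lower relative to Cd84 in both AD/KO libraries. Slamf8 was higher relative to Cd84 in both, with 16.2 and 11.6 reads in AD and 23.1 and 19.2 in AD/KO. Cd48, Slamf1 and Slamf9 overlapped on this measure. Cd84 itself stood at 53.3% of AD under TMM. How many of all genes lie lower or higher relative to Cd84 was not computed. The unequal differences of the members on this measure are a description only, since the members were chosen from this contrast.

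To compare levels between genes, CPM was divided by the length of the merged exons in kilobases (GENCODE M21). In AD the order was Cd84 (39.4 ± 4.65 CPM per kb, SD, n = 2), Cd48 (29.7 ± 6.81), Slamf9 (21.4 ± 2.26), Ly9 (19.2 ± 2.65), Slamf8 (11.3 ± 3.89), Cd244a (3.78 ± 0.233), Slamf6 (1.98 ± 0.497), Slamf7 (1.32 ± 0.217) and Slamf1 (0.776 ± 0.137). Of the neighbours in this order, the ranges of mean ± SD overlapped for Cd84 and Cd48, Cd48 and Slamf9, Slamf9 and Ly9, and Slamf6 and Slamf7. Within the libraries, however, Cd84 lay above Cd48, Cd48 above Slamf9 and Slamf6 above Slamf7 in 4 of 4, while Slamf9 lay above Ly9 in 3 of 4. In AD/KO Cd84 (21.0 ± 14.4) and Cd48 (15.2 ± 11.4) were again the highest on this scale. Ly9 stood at 5.49 ± 3.33 and Slamf8 at 9.47 ± 7.40, so that Slamf8 ranked the third and Ly9 the fifth, with overlapping ranges of mean ± SD. Within the libraries Ly9 lay above Slamf8 in both of AD and below it in both of AD/KO. Cd244a stood at 0.781 ± 0.333 CPM per kb, the seventh of the 9.

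Some members are best known from lymphocytes, so the markers of other cells were read beside them. Of 11 NK cell genes, the summed level was 8.56 and 6.82 CPM in AD and 4.43 and 3.15 CPM in AD/KO. The level of Cd244a alone was above this sum in both AD libraries and in AD/KO replicate 1, and below it in AD/KO replicate 2 (2.66 CPM). The defining receptor Ncr1 had between 0 and 2 reads per library, but Prf1 (perforin) had 43 and 33 reads in AD and 43 and 10 in AD/KO. Klrd1 (CD94) had 37 and 20 reads in AD and 15 and 7 in AD/KO. Eomes ran the other way with overlap, at 7 and 26 reads in AD and 11 and 40 in AD/KO. Of the 4 NK cell genes that passed the filter on low counts, 3 had a negative log2 fold change, 2 of them without overlap. Over all genes tested, 21.7% lay lower without overlap and 20.3% higher. The 14 T cell genes summed to 13.4 and 14.1 CPM in AD and 9.64 and 11.7 CPM in AD/KO. Of these, the receptor chains Trac and Trbc2 were at 0 in all libraries, and Cd3e had at most 2 reads. Others were present, such as Icos (73 and 50 reads in AD, 66 and 22 in AD/KO) and Cd5 (35 and 46 against 11 and 13). Lat (13 and 32 reads in AD, 44 and 64 in AD/KO) and, with overlap, Cd4 (10 and 30 against 22 and 52) ran the other way. Of the 5 T cell genes that passed the filter, 3 had a negative log2 fold change. Without overlap 1 lay lower and 1 higher, against 21.7% and 20.3% of all genes. The 9 B cell genes summed to 41.9 and 40.9 CPM in AD and to 21.2 and 12.3 CPM in AD/KO, with Ighm at 0 throughout. Of the 6 that passed the filter, 6 had a negative log2 fold change, 5 of them without overlap (21.7% of all genes). The 6 monocyte genes summed to 102 and 459 CPM in AD and to 53.3 and 85.3 CPM in AD/KO. Of these, 6 of 6 had a negative log2 fold change, 4 of them without overlap (21.7% of all genes). The 6 dendritic cell genes summed to 27.4 and 35.7 CPM in AD and to 30.6 and 51.4 CPM in AD/KO. They were divided, since Flt3 and Zbtb46 had positive log2 fold changes, whereas Clec9a (2.03 and 2.09 against 0.626 and 0.543 CPM) and Cd209a (4.65 and 4.43 against 1.62 and 1.03 CPM) lay lower without overlap. The 6 markers of border macrophages summed to 127.7 and 97.1 CPM in AD and to 67.6 and 58.8 CPM in AD/KO. Of these markers 5 of 6 were lower, 4 of them without overlap (21.7% of all genes). Among the 6, F13a1, a coagulation factor made by macrophages, stood at 39.5 and 39.3 CPM in AD. In AD/KO it stood at 14.9 and 14.7 CPM. The part of RNA from any of these cells in the differences of the SLAM genes was not tested.

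Genes that carry or restrain SLAM signals were read from a list of 27, of which 24 passed the filter on low counts. In the quasi-likelihood test of edgeR 0 of these 24 passed after Benjamini-Hochberg adjustment, as 0% did over all genes, and 0 had an unadjusted p under 0.05. Of the 24, 17 had a negative and 7 a positive log2 fold change, with a median of −0.44 against −0.05 for all genes tested. The median depended on the libraries and on the scaling. Leaving out a library gave −0.0073 (AD/KO replicate 2), −0.13 (AD replicate 1) or −0.85 (AD/KO replicate 1), and it turned to 0.20 and 0.29 under the homeostatic and pan-myeloid scalings, below the medians of all genes of 0.74 and 0.84.

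Of the adaptors that bind the receptor tails, only Sh2d1b1 (EAT-2) passed the filter on low counts. It stood at 6.31 and 3.81 CPM in AD (87 and 62 reads) and at 1.93 and 0.543 CPM in AD/KO (37 and 10 reads). Its groups did not overlap and its log2 fold change of −2.02 (SE 0.79) was the most negative of the list, but the adjusted p of 0.680 did not pass by edgeR's quasi-likelihood test. Sh2d1a (SAP) had 0 reads in each library, which allows from 0.156 to 0.218 CPM at the floor of 3 counts, and Sh2d1b2 had 2 reads in 1 AD library. Cd2, the other receptor for Cd48 in mice, had 5 to 7 reads in each library and was not tested.

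Among the tyrosine kinases, Fyn, which couples to SAP, stood at 26.8 and 58.7 CPM in AD and at 54.8 and 106 CPM in AD/KO. Its groups overlapped. Fyn is also a kinase of neurons and oligodendrocytes. The 7 oligodendrocyte markers summed to 1629 and 2597 CPM in AD and to 3900 and 8522 CPM in AD/KO, although Mog and Mag among them were highest in AD replicate 2, and their part in the values of Fyn was not tested. Lck, a kinase of T cells, was near the limit of counting at 0.508 to 1.19 CPM. The enzymes on the activating side, Vav1 and Plcg2, had log2 fold changes of −0.62 (SE 0.66) and −0.75 (SE 0.68), with overlap, whereas Plcg1 was at 153 and 156 CPM in AD and at 180 and 212 CPM in AD/KO. The phosphatases on the inhibitory side differed in direction from each other. Ptpn6 (SHP-1) and Inpp5d (SHIP-1), both of blood cells, had log2 fold changes of −0.62 (SE 0.61) and −0.49 (SE 0.71) with overlap. Ptpn11 (SHP-2), which is made in most cells, was at 94.2 and 131 CPM in AD and at 148 and 256 CPM in AD/KO. Its log2 fold change was 0.85 (SE 0.42), and its adjusted p of 0.680 in the edgeR fit did not pass.

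Tyrobp (DAP12), Fcer1g and the Mac-1 integrin chains Itgam and Itgb2 act with Slamf7 in macrophage phagocytosis. Itgb2 stood at 406 and 401 CPM in AD and at 325 and 122 CPM in AD/KO, and Tyrobp at 226 and 263 against 196 and 76.5 CPM, both without overlap. Their log2 fold changes were −0.85 (SE 0.56) and −0.84 (SE 0.53), near those of Cd84 and Cd48. Itgam (−0.64, SE 0.67) and Fcer1g (−0.47, SE 0.57) overlapped between the groups. Becn1, Pik3c3 and Pik3r4, of the lipid kinase complex that Slamf1 binds on phagosomes, lay between −0.06 and 0.08. Uvrag, listed with them, was lower at −0.41 (SE 0.33), with overlap (98.4 and 76.7 CPM in AD, 77.3 and 54.8 CPM in AD/KO). In all, 5 of the 24 genes lay lower without overlap under TMM (Sh2d1b1, Itgb2, Tyrobp, Dok2 and Rasa1, against 21.7% of all genes). Dok2 and Rasa1 each moved to 0.11 and 0.20 under the homeostatic and pan-myeloid scalings. These values lie above 0 but below the medians of all genes there (0.74 and 0.84). Another 3 of the 24 lay higher without overlap under TMM (Lck, Plcg1 and Ptpn11, against 20.3% of all genes).

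**Figure D3:**
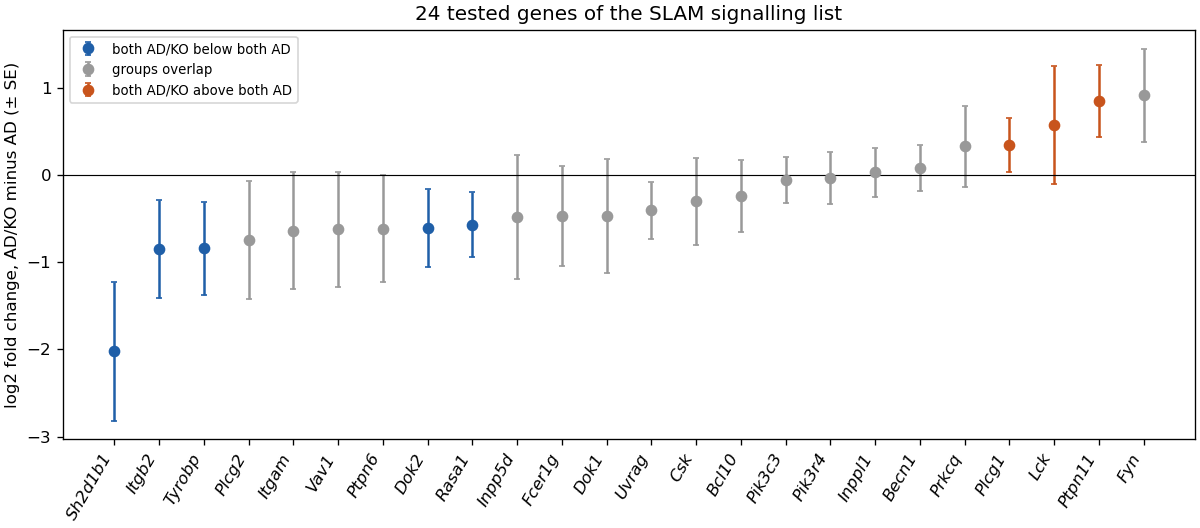
Log2 fold change (AD/KO minus AD, ± SE) of the 24 tested genes of the SLAM signalling list, coloured by whether the 2 AD/KO libraries lie below, above or among the 2 AD libraries. Sh2d1b1 lies lowest at −2.02, and Fyn highest at 0.91.

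The members form a cluster on the chromosome, so the other protein-coding genes between them and within 500000 bases were compared. Of 50 such genes 42 were tested, and 0 passed by edgeR's quasi-likelihood test (0% over all genes) and 0 had an unadjusted p under 0.05. They were divided in direction, with 24 higher and 18 lower and a median log2 fold change of 0.10, near the −0.05 of all genes. In 3 the AD/KO libraries lay below the AD libraries and in 12 above, against 21.7% and 20.3% of all genes. Among those with the largest log2 fold changes at a mean of at least 5 CPM were Pcp4l1 (1.69, SE 0.69) and Kcnj10 (1.14, SE 0.62), a potassium channel gene of astrocytes. Summed astrocyte markers were at 1866 and 4384 CPM in AD and at 4555 and 11657 CPM in AD/KO, and their part in these values was not tested. Ncstn and Copa, which lie between Slamf6 and Slamf9, had log2 fold changes of −0.38 (SE 0.45) and −0.09 (SE 0.31).

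**Figure D4:**
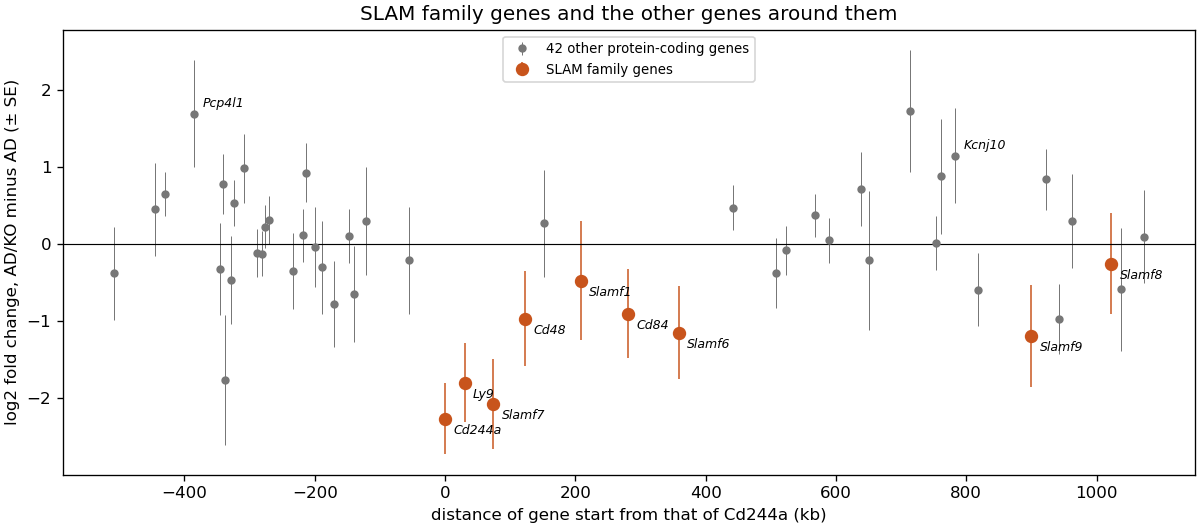
Log2 fold change (AD/KO minus AD, ± SE) of the 9 members (orange) and of 42 other protein-coding genes (grey), by the distance of the gene start from that of Cd244a in kb. Cd244a, Ly9 and Slamf7 lie side by side at the lowest member values, and the grey points lie on both sides of 0.

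Genes with the pattern most like that of Cd244a were sought by the root mean square distance between centred log2 CPM over the 4 libraries, among 13762 genes of at least 5 CPM that are no members. The closest was Ccr2, a chemokine receptor of monocytes, at a distance of 0.066. It stood at 39.8 and 40.0 CPM in AD and at 10.3 and 6.13 CPM in AD/KO. Next came Lilrb4a, an inhibitory receptor of myeloid cells (0.157), the cytokine Tnf (0.158), Gas2l3, a protein that links actin and microtubules (0.196), and the scavenger receptor Msr1 (0.216). Of the family, Slamf7 was the closest to Cd244a (0.197, with 4 of the 13762 genes closer) and Ly9 the next (0.286, with 14 closer), while Slamf8 was the farthest (1.02, with 3895 closer). With 4 libraries in 2 groups, such a likeness is a description of these libraries only.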

How the data were processed

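The authors deposited a count table for each library, with whole reads listed by gene symbol. The submitters' processing notes name the build mm10 and the tools FastQC, HISAT2, SAMtools, featureCounts, Subread and DESeq2 1.30.0. Strand use, the handling of reads with several matches and the annotation are not given in the sources used here. RNA was extracted with TRIzol and depleted of ribosomal RNA, and libraries were stranded, per the labels' protocols. A count was given for 49993 genes, and 11 broken lines without one were left out of each table. No column was without a sample (0).

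Genes were kept by filterByExpr (minimum count 10, minimum total 15), scaled by TMM and tested with edgeR 4.0.16 in R 4.3.3 (quasi-likelihood F-test, all 4 libraries in 1 fit), with Benjamini-Hochberg adjustment over all genes at 0.05. The standard error is the log2 fold change divided by the square root of F. The procedure was tested on simulated counts, with planted changes larger than that of any member and libraries drawn independently. That test does not show its power for the changes in these data. Counts carry no molecular identifiers, so floors cover counting error only.

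The members and lists were chosen with earlier results of these data known. Named were all members, listed signalling genes (those with no overlap or unadjusted p under 0.05 first), the 3 neighbours of largest change at a mean of at least 5 CPM, Ociad1 and the 5 genes closest to Cd244a. Of the genes this rule names, 1 is not reported here. Others named (Fyn, Vav1, Ncstn and Copa among them) were picked for their role or place after values were seen. Alternatives were DESeq2 1.42.0, its size factors in edgeR, no filter or one at a mean of 1 CPM, scaling to 2 gene lists, the replicate number as a block, and leaving out each library. Promoters are RefSeq's for GRCm38.p6. Similar transcripts were searched with BLAST 2.17.0 (at least 95% identity over at least 100 bases).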

Additional observations from a re-analysis of the deposited data

How the results depend on the processing

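Every member log2 fold change stayed negative under the alternatives tried except those of Slamf8 and Slamf1. Slamf8 turned to 0.13 with scaling to the homeostatic list and to 0.25 with scaling to the pan-myeloid list, and ran from −1.37 to 0.39 over the 4 fits that each left out 1 library; Slamf1 ran from −1.76 to 0.21 over those fits. The same fits gave ranges of −2.74 to −1.88 for Cd244a, −2.56 to −1.28 for Ly9, −2.57 to −1.67 for Slamf7 and −2.08 to −0.53 for the median of the members. The median of the signalling list turned to 0.20 (homeostatic scaling) and 0.29 (pan-myeloid scaling) and ran from −0.85 to −0.0073 with a library left out. The median of the neighbours moved to 0.90 and 0.97 under those scalings and ran from 0.085 to 0.28 with a library left out. Under the same scalings Dok2 turned to 0.11 and 0.20, Rasa1 to 0.11 and 0.20, and Ociad1 to 0.050 and 0.17, while the median of all genes rose to 0.74 and 0.84.

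The number of genes called was 0 in edgeR's quasi-likelihood test, 90 with DESeq2 (40 higher, 50 lower) and from 0 to 524 with a library left out, the 524 without AD replicate 2 and 48 without AD replicate 1; the cause was not tested. The libraries share the replicate numbers 1 and 2, which the labels tie to no litter, batch or day. A fit with the replicate block called 4333 of the 21439 genes tested, 2878 of them higher and 1455 lower. The counts in the lists are to be read beside that share. Of the 24 signalling genes it called 2 higher (Fyn and Ptpn11, adjusted p 0.00965 and 0.0252 in edgeR's quasi-likelihood test) and 2 lower (Sh2d1b1 and Rasa1, adjusted p 0.0179 and 0.0481). Of the 42 neighbours it called 7 higher and 2 lower. Across genes, the distance of a library from the mean of its group correlated at 0.66 between libraries of the same number. The depth limits Slamf7, with 18 reads in 1 library, and Sh2d1b1, with 10, and leaves Sh2d1a, Sh2d1b2 and Cd2 untested.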
